A study of Homo sapiens with 12 samples.

Results

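ISG15 is a small ubiquitin-like protein, and the genes described here are ISG15 itself and the enzymes that attach it to other proteins and take it off again. They were chosen by gene symbol, namely ISG15, UBA7, UBE2L6, HERC5, HERC6 and USP18, and all 6 had a row among the 13001 genes of the deposited count and TPM tables, where TPM is the transcript level scaled to length and library size. The RNA came from LNCaP, clone FGC, at passage 8, a prostate cancer line that responds to androgen and was started from a lymph node metastasis. The cells were transiently transfected by lipofection with a plasmid for LSD1+8a, for SRRM4 or for LSD1, or with the empty vector (EV), and each of these 4 groups has 3 libraries of polyA RNA. LSD1, the product of KDM1A, removes methyl groups from histone lysines, LSD1+8a is its splice form with the neural microexon 8a, and SRRM4 is the splicing factor that promotes inclusion of such microexons. All groups, EV included, received plasmid DNA and transfection reagent, so none shows untransfected cells. The series title asks about the splicing of LSD1+8a by SRRM4 in neuroendocrine prostate cancer, and the 6 pairwise comparisons of the groups were used here to describe the ISG15 system.

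ISG15 conjugation, called ISGylation, runs like ubiquitination. UBA7 is the E1 enzyme that activates ISG15, UBE2L6 is the E2 enzyme that carries it, and HERC5 is the main human E3 ligase that passes it to target proteins, often while they are being translated. HERC6 is the closest relative of HERC5 and serves as the main ISG15 ligase in mice. USP18 removes ISG15 from its targets and, apart from that activity, binds the IFNAR2 subunit of the type I interferon receptor and dampens its signalling. All 6 genes are known as interferon-stimulated genes, and free ISG15 is also secreted and can act as a signal between cells.

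Total counts per library were 12110101 to 13359671 with LSD1+8a, 10876293 to 11485489 with SRRM4, 11658730 to 12565335 with LSD1 and 12750609 to 13570740 with EV. KDM1A averaged 2268 ± 316 CPM (counts scaled to library size, not to transcript length) with LSD1+8a, 96.3 ± 4.06 CPM with SRRM4, 540 ± 40.5 CPM with LSD1 and 94.3 ± 0.828 CPM with EV (SD, n = 3 each), so it was raised where a KDM1A plasmid is labelled. LSD1+8a cells therefore had both another isoform and more KDM1A transcript than LSD1 cells, and the effects of isoform and amount cannot be told apart. No gene in the tables has the symbol SRRM4, so that transcript was not analysed here. All 7 luminal prostate markers looked up were measured, at a summed level of 4777 to 5774 TPM per library, and the lowest group mean was that of SRRM4 libraries (4800 TPM, against 5379 TPM with EV). None of 4 leukocyte markers had a row, and VWF and COL1A1, the measured endothelial and fibroblast markers, lay at 2.70 to 4.03 and at 6.99 to 10.6 TPM per library. Their part in the results below was not tested. Whether the 3 libraries of each group were grown separately is not stated in the labels, so p-values cover no more than library-to-library spread, part of which may be technical.

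The stretches just upstream of ISG15 and HERC5 are shown because these were the members with the largest rises, and that of HERC6 because it is the neighbour of HERC5, with a start site 78.3 kb away on the same strand of chromosome 4. Each runs from 250 bases before to 50 bases after the RefSeq start site (GRCh38.p14, plus strand for all 3, while the submitters' notes name hg19), and ISG15 lies on chromosome 1. Capitals mark the core of the interferon-stimulated response element, searched as GAAA, any 2 bases and GAAA, or on the other strand as TTTC, any 2 bases and TTTC, which is bound by interferon-activated factors such as the pair of STAT2 and IRF9.
ISG15 chr1:1013247-1013546: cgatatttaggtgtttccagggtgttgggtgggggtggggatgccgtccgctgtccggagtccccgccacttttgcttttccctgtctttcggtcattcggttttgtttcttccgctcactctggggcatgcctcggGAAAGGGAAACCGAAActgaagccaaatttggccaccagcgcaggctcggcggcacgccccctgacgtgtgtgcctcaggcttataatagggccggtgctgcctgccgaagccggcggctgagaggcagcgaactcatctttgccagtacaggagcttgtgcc
HERC5 chr4:88456869-88457168: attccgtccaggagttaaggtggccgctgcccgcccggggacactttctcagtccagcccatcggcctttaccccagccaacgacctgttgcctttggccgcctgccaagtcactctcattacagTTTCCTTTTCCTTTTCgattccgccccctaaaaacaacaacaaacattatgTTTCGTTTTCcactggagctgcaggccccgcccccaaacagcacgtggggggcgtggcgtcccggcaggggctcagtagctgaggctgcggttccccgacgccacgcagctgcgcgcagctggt
HERC6 chr4:88378602-88378901: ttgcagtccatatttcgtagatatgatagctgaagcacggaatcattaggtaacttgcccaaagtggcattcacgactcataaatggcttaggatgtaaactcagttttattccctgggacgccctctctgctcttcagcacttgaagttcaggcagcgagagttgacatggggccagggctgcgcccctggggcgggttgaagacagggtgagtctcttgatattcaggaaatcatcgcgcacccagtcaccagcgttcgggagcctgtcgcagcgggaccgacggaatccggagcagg

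The ISG15 window held 2 overlapping matches, which begin 113 and 107 bases before the start site. HERC5 held 3 on the opposite strand, at 125, 119 and 74 bases before it, of which the first pair overlap. HERC6 and both listed windows of UBE2L6 on chromosome 11 held none of these letters, which says nothing of elements outside the windows. UBA7 on chromosome 3 and USP18 on chromosome 22 had no entry. The core was present in 3.57% of all 34796 promoter windows of the same length on either strand. A match is a description of the letters and was not tested as a binding site.

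ISG15 transcripts were about 2-fold more abundant with LSD1+8a and with SRRM4 than with EV, and slightly more abundant with LSD1. In single libraries ISG15 stood at 112, 105 and 104 CPM with LSD1+8a, at 102, 104 and 104 CPM with SRRM4, at 62.2, 65.1 and 62.9 CPM with LSD1, and at 48.0, 49.5 and 50.7 CPM with EV. Every LSD1+8a and SRRM4 library lay above every LSD1 library, and every LSD1 library lay above every EV library. Against EV, ISG15 was 2.17-fold higher with LSD1+8a (log2 fold change 1.11, SE 0.04, adjusted p = 1.53e-19), 2.09-fold higher with SRRM4 (1.06, SE 0.05, adjusted p = 2.98e-19) and 1.28-fold higher with LSD1 (0.36, SE 0.05, adjusted p = 8.55e-05), all by edgeR's quasi-likelihood test with Benjamini-Hochberg adjustment over 13001 genes. In these bulk samples a larger share of responding cells and more RNA per responding cell cannot be told apart.

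ISG15 also differed between the transfections themselves. It was 1.69-fold higher with LSD1+8a than with LSD1 (log2 fold change 0.75, adjusted p = 1.62e-14) and 1.63-fold higher with SRRM4 than with LSD1 (0.70, adjusted p = 3.09e-14). Between SRRM4 and LSD1+8a the difference did not pass (-0.05, 95% interval -0.14 to 0.03, adjusted p = 0.499 by edgeR), although the SRRM4 libraries all lay below the lowest LSD1+8a library. The order of ISG15 levels was thus LSD1+8a and SRRM4, not separated by the test, then LSD1, then EV. Each of the 5 ISG15 differences that passed also passed in all 17 alternative settings of its comparison. Among these 17, the setting without a filter on low counts repeats the main fit, because the filter removed 0 genes.

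**Figure D1:**
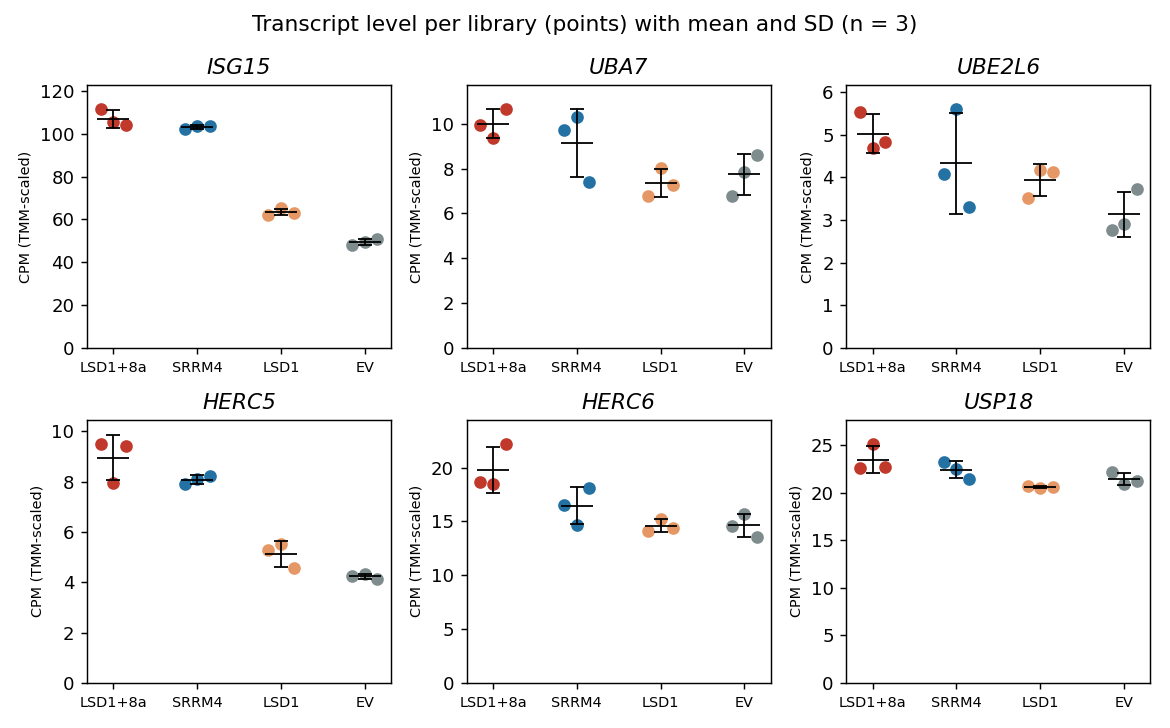
Transcript level of the 6 genes in CPM (y axes, each from 0) by group (x axes), with 1 point per library and bars for mean and SD (n = 3). For ISG15 and HERC5 every LSD1+8a and SRRM4 library lies above every LSD1 and EV library, while USP18 lies between 20.4 and 25.1 CPM in all 12 libraries.

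HERC5, the human ligase, was the member that followed ISG15 most closely. It stood at 9.51, 7.93 and 9.43 CPM with LSD1+8a, at 7.89, 8.09 and 8.24 CPM with SRRM4, at 5.26, 5.53 and 4.56 CPM with LSD1, and at 4.26, 4.32 and 4.11 CPM with EV. The LSD1+8a and SRRM4 libraries overlapped each other and did not overlap those of LSD1 or EV, and the lowest LSD1 library lay only a little above the highest EV library. HERC5 was 2.11-fold higher with LSD1+8a than with EV (log2 fold change 1.08, SE 0.14, adjusted p = 1.82e-06 by edgeR) and 1.91-fold higher with SRRM4 (0.93, SE 0.14, adjusted p = 1.30e-05). With LSD1 the log2 fold change over EV was 0.27 (95% interval -0.03 to 0.58, adjusted p = 0.867 by edgeR), which did not pass. HERC5 was also higher with LSD1+8a than with LSD1 (0.81, adjusted p = 0.000435) and with SRRM4 than with LSD1 (0.66, adjusted p = 0.00179). The difference between SRRM4 and LSD1+8a was -0.15 (95% interval -0.41 to 0.10, adjusted p = 0.541 by edgeR).

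HERC6, the neighbouring ligase gene, rose with LSD1+8a against EV, and its values with SRRM4 and LSD1 did not pass. It stood at 18.6, 18.5 and 22.2 CPM with LSD1+8a, at 16.5, 14.7 and 18.1 CPM with SRRM4, at 14.1, 15.2 and 14.4 CPM with LSD1, and at 14.6, 15.7 and 13.5 CPM with EV. LSD1+8a libraries lay above all others, while the SRRM4, LSD1 and EV libraries overlapped. The rise with LSD1+8a was 1.35-fold over EV (log2 fold change 0.43, SE 0.09, adjusted p = 0.0129 by edgeR) and 1.35-fold over LSD1 (0.44, SE 0.09, adjusted p = 0.0165). The SRRM4 value was 0.17 against EV (95% interval -0.03 to 0.36, adjusted p = 0.334 by edgeR), and the direct difference of SRRM4 from LSD1+8a was -0.26 (adjusted p = 0.0753).

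The HERC6 calls were the least stable. Against EV the call ended with DESeq2 (adjusted p = 0.104), with the TPM values (0.715 and 0.720), and without LSD1+8a replicate 3 (0.275), EV replicate 1 (0.0794) or EV replicate 3 (0.110), within a range of 0.0120 to 0.720 over all alternatives. Against LSD1 it ended with DESeq2 (0.131), limma-voom (0.0657), the TPM values (0.463 and 0.462), and without LSD1+8a replicate 3 (0.272), LSD1 replicate 1 (0.144) or LSD1 replicate 3 (0.103), within a range of 0.0149 to 0.463. The difference of SRRM4 from LSD1+8a passed without SRRM4 replicate 3 (adjusted p = 0.0475, range 0.0475 to 0.871). Of the 4124 stretches of 50 bases in its 4 coding transcripts, 0.727% also occur in transcripts of HERC3.

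For the carrier and the activating enzyme every LSD1+8a library lay above every EV library, but neither difference passed the test. UBE2L6, the E2, stood at 5.54, 4.68 and 4.84 CPM with LSD1+8a, at 4.08, 5.61 and 3.30 CPM with SRRM4, at 3.51, 4.17 and 4.14 CPM with LSD1, and at 2.76, 2.91 and 3.73 CPM with EV. It was the least counted member, with 35 to 74 counts per library, and its lowest count of 35 has an exact 95% Poisson interval of 24.4 to 48.7, which covers counting error only. Against EV its log2 fold change was 0.68 with LSD1+8a (95% interval 0.30 to 1.06, adjusted p = 0.172 by edgeR), 0.46 with SRRM4 (0.07 to 0.86, adjusted p = 0.154) and 0.33 with LSD1 (-0.07 to 0.72, adjusted p = 0.881). The LSD1+8a libraries did not overlap those of EV or LSD1, whereas the SRRM4 libraries spread across all other groups.

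UBA7, the E1, stood at 9.96, 9.36 and 10.7 CPM with LSD1+8a, at 9.71, 10.3 and 7.42 CPM with SRRM4, at 6.78, 8.00 and 7.26 CPM with LSD1, and at 6.79, 7.83 and 8.60 CPM with EV. Again the LSD1+8a libraries lay above those of LSD1 and EV without overlap, and the SRRM4 libraries did not. The log2 fold change over EV was 0.37 with LSD1+8a (95% interval 0.11 to 0.62, adjusted p = 0.449 by edgeR), 0.24 with SRRM4 (-0.02 to 0.50, adjusted p = 0.298) and -0.08 with LSD1 (-0.35 to 0.19, adjusted p = 0.966). Against LSD1 it was 0.44 with LSD1+8a (adjusted p = 0.256) and 0.32 with SRRM4 (adjusted p = 0.153), and neither passed.

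USP18, the protease and feedback inhibitor, stayed within a narrow band. It stood at 22.5, 25.1 and 22.7 CPM with LSD1+8a, at 23.2, 22.5 and 21.4 CPM with SRRM4, at 20.7, 20.4 and 20.6 CPM with LSD1, and at 22.2, 20.9 and 21.2 CPM with EV. The LSD1+8a libraries were slightly above and the LSD1 libraries slightly below all EV libraries. The log2 fold change over EV was 0.13 with LSD1+8a (95% interval -0.02 to 0.28, adjusted p = 0.776 by edgeR), 0.06 with SRRM4 (-0.09 to 0.22, adjusted p = 0.682) and -0.06 with LSD1 (-0.21 to 0.09, adjusted p = 0.95). The upper ends of these intervals lie below the lower ends of the ISG15 intervals in the same comparisons (1.02 with LSD1+8a, 0.97 with SRRM4 and 0.26 with LSD1). Of the 50-base stretches of the USP18 coding transcript, 23.4% also occur in transcripts of 3 other genes, chiefly USP41, so some of its reads may be shared, and the effect of this on the USP18 values was not tested.

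**Figure D2:**
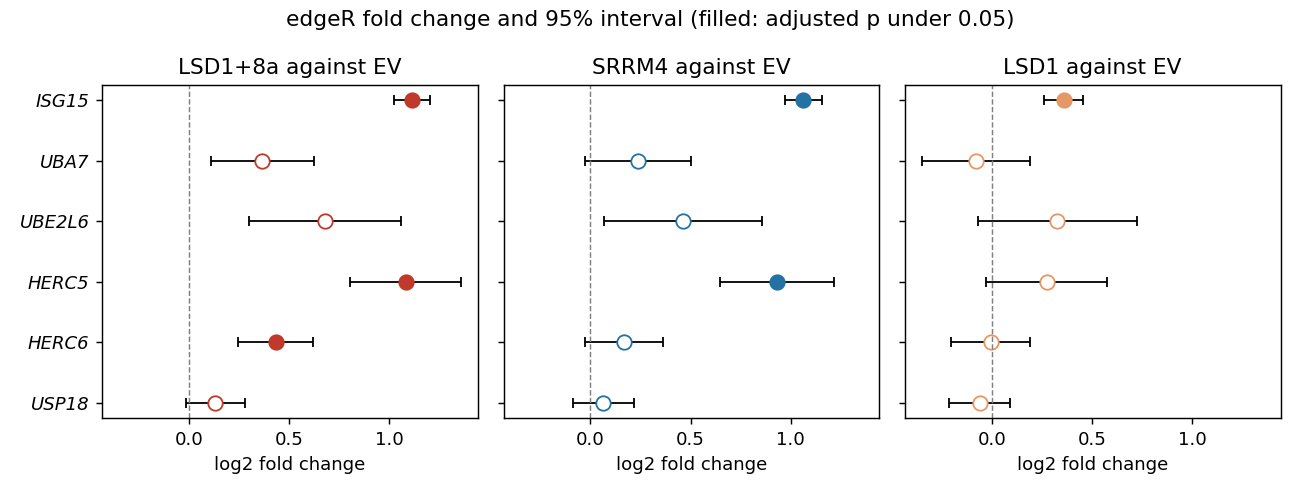
Log2 fold change over EV (x axis) of each gene (rows) with its 95% interval, for LSD1+8a, SRRM4 and LSD1, where filled points passed an adjusted p of 0.05 in edgeR. ISG15 passed in all 3 comparisons, HERC5 with LSD1+8a and SRRM4, HERC6 with LSD1+8a, and the USP18 intervals cross 0 in each.

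Counted together, 3 of 6 members were called higher with LSD1+8a against EV, where 0.285% of all genes were called higher, and 0 lower (0.0615%). With SRRM4 against EV 2 of 6 were called higher (4.47% of all genes) and 0 lower (3.22%). With LSD1 against EV 1 of 6 was called higher (0.0462% of all genes) and 0 lower (0.0538%). With LSD1+8a against LSD1 3 of 6 were called higher (0.208% of all genes) and 0 lower (0.115%). With SRRM4 against LSD1 2 of 6 were called higher (4.38% of all genes) and 0 lower (2.67%). With SRRM4 against LSD1+8a edgeR called 0 of 6 higher (4.42% of all genes) and 0 lower (3.17%), with 1 lower at an unadjusted p under 0.05, and DESeq2 and limma-voom called 0. The comparisons with EV share the same 3 EV libraries, so they are not independent of each other.

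All 6 members had their 3 LSD1+8a libraries above the 3 EV libraries, which 6.12% of all genes did, and likewise above the 3 LSD1 libraries (6.16%). With SRRM4 2 of 6 lay above EV without overlap (13.0% of all genes). With LSD1 2 of 6 lay above EV (5.48%) and 1, USP18, lay below (6.21%). With SRRM4 3 of 6 lay above LSD1 (13.2%), while against LSD1+8a 0 lay above (12.7%) and 2, ISG15 and HERC6, lay below (12.8%). In TPM the members above without overlap were 5 of 6 with LSD1+8a (9.36% of all genes), 3 with SRRM4 (13.5%) and 2 with LSD1 (9.39%) against EV. Against LSD1 they were 5 with LSD1+8a (5.38%) and 4 with SRRM4 (9.87%), and for SRRM4 against LSD1+8a 0 (9.23%). The median log2 fold change of the 6 was 0.56 with LSD1+8a, 0.35 with SRRM4 and 0.14 with LSD1 against EV, beside medians of 0.00092, -0.0011 and 0.0019 over all genes.

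In the authors' deposited table, which covers the comparisons with EV, ISG15 had log2 fold changes of 1.11 with LSD1+8a (adjusted p = 3.13e-78) and 1.06 with SRRM4 (adjusted p = 3.53e-69). HERC5 had 1.08 (adjusted p = 6.03e-06) and 0.93 (adjusted p = 0.000108) in the authors' deposited table. These 2 were the members called higher in each comparison in the authors' deposited table, beside 0.269% of the genes with an adjusted p for LSD1+8a and 2.52% for SRRM4. The HERC6 value for LSD1+8a in the authors' deposited table was 0.43 with an adjusted p of 0.104, which did not pass. For LSD1 the authors' deposited table lists no adjusted p for any of the 6, and ISG15 has a log2 fold change of 0.36 there with an unadjusted p of 4.20e-09.

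Because TPM is scaled to transcript length, it allows the members to be set against each other. ISG15 was far above its enzymes in every group, at 254 ± 10.2 TPM with LSD1+8a, 241 ± 3.70 with SRRM4, 150 ± 5.45 with LSD1 and 115 ± 2.87 with EV (SD, n = 3 each). With LSD1+8a the enzymes followed in the order USP18 (15.5 ± 0.961 TPM), HERC6 (9.91 ± 1.59), UBA7 (6.25 ± 0.448), UBE2L6 (5.06 ± 0.539) and HERC5 (3.63 ± 0.421). With EV the order of the means was the same, from USP18 (13.8 ± 0.525 TPM) to HERC5 (1.73 ± 0.235). ISG15 made up 85.3 to 87.1% of the summed TPM of the 6 with LSD1+8a, 85.8 to 87.4% with SRRM4, 81.6 to 83.4% with LSD1 and 78.1 to 79.4% with EV.

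The ratio of ISG15 to USP18 followed the groups, and that to HERC5 did not separate them. There were 14.95 to 17.9 ISG15 transcripts per USP18 transcript with LSD1+8a, 15.7 to 17.4 with SRRM4, 10.8 to 11.4 with LSD1 and 7.83 to 8.60 with EV. These ranges do not overlap between EV, LSD1 and the pair of LSD1+8a and SRRM4, which overlap each other. For HERC5 the same ratio was 62.5 to 79.0 with LSD1+8a, 71.9 to 76.5 with SRRM4, 71.0 to 82.4 with LSD1 and 57.3 to 75.4 with EV, with overlapping ranges throughout. For UBE2L6 it was 46.7 to 52.9 with LSD1+8a and 42.1 to 71.1 with SRRM4, above 34.1 to 37.2 with LSD1 and 31.6 to 39.9 with EV. For HERC6 the EV ratios (11.6 to 17.7) lay below those of all other libraries (21.0 to 29.6). For UBA7 the EV ratios (22.2 to 29.6) lay below those of LSD1+8a and SRRM4, while LSD1 spread from 20.0 to 44.5. The ratios were not tested and are given as a description.

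**Figure D3:**
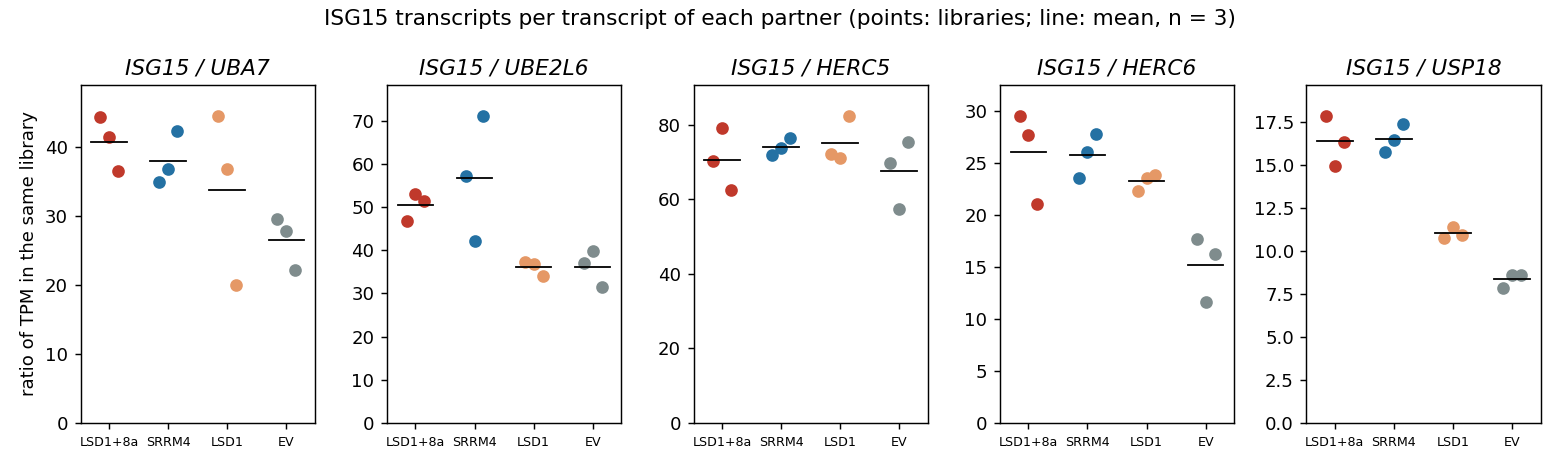
Ratio of ISG15 TPM to the TPM of each partner in the same library (y axes, each from 0) by group, with 1 point per library and a line at the mean (n = 3). The ratio to USP18 lies between 14.95 and 17.9 with LSD1+8a and between 7.83 and 8.60 with EV, whereas the ratio to HERC5 overlaps in all groups.

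TPM and counts differed between libraries for UBA7 and HERC6. In LSD1 replicate 3 UBA7 had 86 counts and 7.47 TPM, while LSD1 replicate 1 had 85 counts and 3.25 TPM. UBA7 averaged 6.37 ± 0.542 TPM with SRRM4 and 4.42 ± 0.809 TPM with EV (SD, n = 3 each), and these libraries did not overlap, although they overlapped in CPM. The TPM obtained per CPM for UBA7 was 1.24 times the EV value with SRRM4 and 1.19 times with LSD1, and 208 and 320 of 12974 genes had a larger upward shift. For HERC6 it was 0.828 times the EV value with LSD1, and 12809 of 12974 genes had a higher ratio. Over all genes the 5th and 95th percentiles of that shift were 0.912 and 1.14 with SRRM4, and 0.917 and 1.14 with LSD1.

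HERC6 behaved likewise within EV, where replicate 2 had 211 counts and 9.86 TPM and replicate 1 had 185 counts and 6.37 TPM. In TPM the HERC6 libraries of LSD1+8a (9.91 ± 1.59 TPM) and EV (7.84 ± 1.81 TPM) overlapped (SD, n = 3 each). ISG15 and USP18 kept a near constant TPM per CPM, 2.29 to 2.39 for ISG15 and 0.640 to 0.668 for USP18 over the 12 libraries. The deposited tables do not say how transcript isoforms entered the TPM, and the reason for the shifts was not tested.

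**Figure D4:**
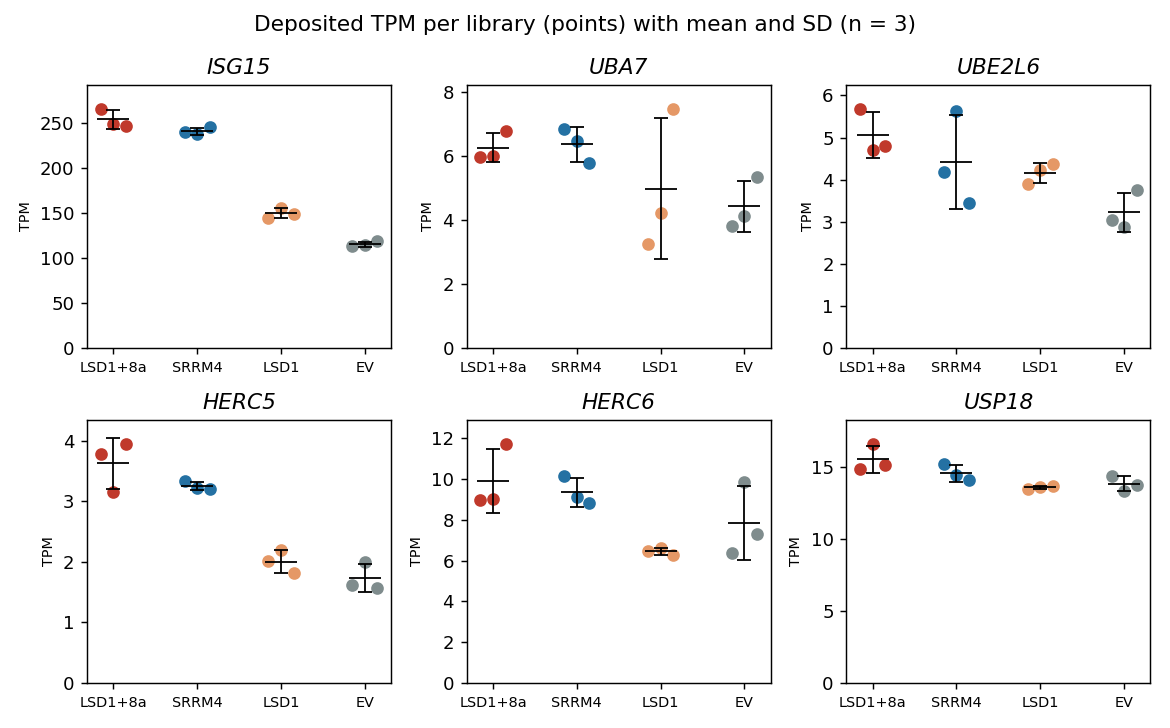
Deposited TPM of the 6 genes (y axes, each from 0) by group, with 1 point per library and bars for mean and SD (n = 3). UBA7 in 1 LSD1 library (7.47 TPM) and HERC6 in 1 EV library (9.86 TPM) lie far above the other libraries of their groups, which the plot of CPM does not show.

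The pattern of ISG15 over the 12 libraries was compared with that of every other gene by Pearson correlation of log2 CPM, as a description, since the libraries fall into 4 groups. HERC5 (r = 0.98) ranked 4th among all other genes. UBE2L6 (r = 0.73) ranked 123rd, HERC6 (0.72) 151st, UBA7 (0.71) 165th and USP18 (0.64) 326th. Outside the 6, the genes most like ISG15 were IFIT1 (0.99), which binds foreign RNA ends, OASL (0.98), an enhancer of RNA sensing, IFITM1 (0.98), which blocks virus entry, OAS1 (0.98), which makes the activator of RNase L, and SAMD9 (0.98), an antiviral factor. Of the 4 of these with a listed promoter window, 3 held the response element core shown above for ISG15, as against 3.76% of the 9012 measured genes with a window. The window of OAS1 held none. Among the members with a window, 2 of 4 held the core. These 5 genes were picked by their likeness to ISG15 in the same libraries, so the share is a description and was not tested.

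Other enzymes reported to act on ISG15, such as the ligases ARIH1 and TRIM25 and several ubiquitin proteases, were not called in any of the 6 comparisons. All 8 were measured, and 0 of 8 passed in any comparison with edgeR, with DESeq2 or with limma-voom. By edgeR 0.0462 to 4.47% of all genes were called higher and 0.0538 to 3.22% lower, depending on the comparison. At such shares, 0 calls among so few genes do not set them apart from other genes. At an unadjusted p under 0.05 edgeR gave 1 of 8 for SRRM4 against EV, USP13 (-0.14, adjusted p = 0.160), 1 for SRRM4 against LSD1+8a, and 0 in the other 4. Ubiquitin counterparts and paralogs of the members, such as the E1 UBA1, the E2 UBE2L3 and the other HERC genes, had 11 of 12 measured. Again 0 of 11 were called by any of the 3 tools, beside the same shares of all genes. At an unadjusted p under 0.05 by edgeR the number was 1 for LSD1+8a against EV, 2 for SRRM4 and 2 for LSD1. It was 0 for LSD1+8a against LSD1, 2 for SRRM4 against LSD1 and 2 for SRRM4 against LSD1+8a. The smallest p against EV was that of HERC2 with SRRM4 (0.11, adjusted p = 0.0891 by edgeR). The share of all genes at an unadjusted p under 0.05 was not worked out. No conclusion is drawn from counts at that threshold, here or in the other paragraphs.

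Genes that relay the interferon signal to ISG15 were called in part. Measured were the receptor subunits IFNAR1 and IFNAR2, the kinases JAK1 and TYK2, and the transcription factors STAT2 and IRF9. Of these 6, 1 was higher with LSD1+8a against EV (0.285% of all genes) and 1 with SRRM4 (4.47%), in both cases IRF9. With either, 0 were lower (0.0615% and 3.22% of all genes). IRF9, which binds DNA together with STAT2, averaged 17.2 ± 0.123 CPM with LSD1+8a, 12.5 ± 1.86 with SRRM4, 11.8 ± 0.447 with LSD1 and 9.04 ± 0.962 with EV (SD, n = 3 each). It was higher than EV by 0.93 on the log2 scale with LSD1+8a (adjusted p = 1.06e-07 by edgeR) and by 0.46 with SRRM4 (adjusted p = 0.00542). IRF9 was lower with SRRM4 than with LSD1+8a (-0.47, adjusted p = 0.00225). With LSD1 edgeR, DESeq2 and limma-voom called 0 of 6, beside 0.0462% of all genes higher and 0.0538% lower by edgeR. At an unadjusted p under 0.05 edgeR gave 2. Against LSD1, 1 of 6 was higher with LSD1+8a (0.208% of all genes). With SRRM4 against LSD1 edgeR, DESeq2 and limma-voom called 0 of 6, beside 4.38% of all genes higher and 2.67% lower by edgeR. At an unadjusted p under 0.05 edgeR gave 2.

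Proteins reported to be modified by ISG15 had 17 of 18 listed symbols measured, and the other, RIGI, is a second symbol of DDX58. Against EV, 2 were higher with LSD1+8a (0.285% of all genes) and 2 with SRRM4 (4.47%). There were 0 lower with either (0.0615% and 3.22% of all genes). In both comparisons the genes called higher were DDX58 (the RNA sensor RIG-I) and IFIH1 (the RNA sensor MDA5). JAK1 stands in both lists. DDX58 rose by 0.97 with LSD1+8a (adjusted p = 4.34e-09 by edgeR) and by 0.53 with SRRM4 (adjusted p = 0.000336), and was lower with SRRM4 than with LSD1+8a (-0.44, adjusted p = 0.00112). IFIH1 rose by 0.62 with LSD1+8a (adjusted p = 0.000322) and by 0.57 with SRRM4 (adjusted p = 0.00024). With LSD1 edgeR, DESeq2 and limma-voom called 0 of 17, beside 0.0462% of all genes higher and 0.0538% lower by edgeR. At an unadjusted p under 0.05 edgeR gave 1. Against LSD1, 1 of 17 was higher with LSD1+8a (0.208% of all genes). With SRRM4 against LSD1 edgeR and limma-voom called 2 of 17 higher (4.38% of all genes by edgeR), and DESeq2 called 0. The list median was 0.01 with LSD1+8a, 0.04 with SRRM4 and 0.0074 with LSD1, close to the medians of all genes given above.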

How the data were processed

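Whole-number counts and TPM of each gene in the 12 libraries were deposited by the authors. A comparison table holds the authors' log2 fold changes and p-values with adjusted p-values against EV, per the file headers. STAR 2.5.3a, RSEM 1.2.31 and hg19 are named, with no role given, in the submitters' processing notes.

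Counts were scaled by TMM. filterByExpr removed 0 of 13001 genes (smallest total 168 counts). A single model of all 4 groups was fitted in edgeR 4.0.16 under R 4.3.3, and each of the 6 comparisons was tested in it by robust quasi-likelihood, called at an adjusted p under 0.05 over all genes. Intervals are 95%. Replicate pairs differed by more than counting noise (in the 12 pairs, chi-square over its degrees of freedom was 1.44 to 2.88). The procedure was tested on simulated data. Log2 CPM used a prior count of 2. Alternatives used DESeq2 1.42.0, limma 3.58.1 (voom, and trend on log2 of TPM plus 1 or plus 0.1), other factors, filters and blocks, and leaving out each library. Members and lists were chosen with earlier results of these data known. Named beside the members were called list genes (up to 4 of smallest p, otherwise the 1 of smallest p) and the 5 genes most correlated with ISG15 (average log2 CPM of at least 0). A gene of the lists is not reported here. Promoter windows came from RefSeq (GRCh38.p14, 4 of 6 members matched) and transcripts from GENCODE v29.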

Additional observations from a re-analysis of the deposited data

How the results depend on the processing

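Of 612 member values under alternatives, 587 kept their direction and their side of the threshold, 14 lost the call, 1 gained it and 10 changed sign. The setting without a filter on low counts repeats the main fit, because filterByExpr removed 0 genes, so its values among the 587 agree by construction. All sign changes were in values that had not passed. The calls lost were HERC6 with LSD1+8a, given above, and HERC5 for LSD1+8a against LSD1 with limma-trend on log2(TPM + 0.1) (adjusted p = 0.0749, range 0.000434 to 0.0749). Under that setting the number of members called for LSD1+8a against LSD1 was 1 of 6. Leaving out 1 library gave 2 to 3 members for LSD1+8a against EV and against LSD1, and 0 to 1 for SRRM4 against LSD1+8a. UBA7 changed sign with limma-trend on TPM, to 0.0891 and 0.0958 for LSD1 against EV and to 0.0215 and 0.0244 for SRRM4 against LSD1+8a, with pseudocounts of 1 and 0.1. Leaving out single libraries moved UBA7 from -0.16 to 0.0044 for LSD1 against EV and from -0.22 to 0.0015 for SRRM4 against LSD1+8a, HERC6 from -0.0568 to 0.0530 for LSD1 against EV, and UBE2L6 from -0.0907 to 0.30 for SRRM4 against LSD1. The causes were not tested. The deviations of same-numbered libraries correlated at r of 0.0764 to 0.143 for LSD1+8a against EV, where each library correlated best with its own number, and at -0.163 to 0.0736 in the other 5 comparisons. As no comparison had every r over 0.1 and the labels name no shared batch, the numbers were not taken as pairs. With a replicate block 3, 2, 1, 3, 2 and 0 members were called in the 6 comparisons, as without it. The number of all genes called also moved with the setting, for SRRM4 against EV from 999 in the main model to 563 with DESeq2. The edgeR shares of all genes given above therefore hold for the main model only. UBE2L6 had the fewest counts of the members (35 to 74 per library).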

Other observations

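UBA7 and UBE2L6 transcripts were rare beside those of the ubiquitin counterparts UBA1 and UBE2L3, which were picked for this after their values were seen. UBA1, the main ubiquitin E1, averaged 210 ± 0.805 TPM with LSD1+8a and 202 ± 2.87 TPM with EV, where UBA7 had 6.25 ± 0.448 and 4.42 ± 0.809 TPM (SD, n = 3 each). UBE2L3, the closest relative of UBE2L6, averaged 84.0 ± 1.97 TPM with LSD1+8a and 83.9 ± 4.94 TPM with EV, where UBE2L6 had 5.06 ± 0.539 and 3.22 ± 0.465 TPM (SD, n = 3 each). TRIM25, reported as an ISG15 ligase, stood at 61.5 ± 4.07 TPM with LSD1+8a and 54.4 ± 4.17 TPM with EV, above HERC5 and HERC6 in both (SD, n = 3 each).

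JAK1, the receptor kinase needed for interferon signalling and reported to be low or lost in LNCaP cells, was also singled out after its values were seen. It averaged 9.80 ± 0.452 CPM with LSD1+8a, 10.7 ± 0.724 with SRRM4, 8.54 ± 0.652 with LSD1 and 8.35 ± 1.13 with EV (SD, n = 3 each), from 96 to 135 counts per library. Its log2 fold change over EV was 0.23 with LSD1+8a (adjusted p = 0.733 by edgeR) and 0.36 with SRRM4 (adjusted p = 0.0518).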
